A study of Mus musculus with 6 samples.

Results

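The heat shock proteins and J-domain co-chaperones are the cell's general protein-folding machinery, together with the heat shock transcription factors that control many of their genes. They were taken from the deposited expression table by gene symbol. The rule covered the HSP90 genes of the cytosol, and the HSP70, HSP110, HSP60, HSP10 and small heat shock protein genes. It also covered the Dnaja, Dnajb and Dnajc genes, the Hsf genes and Bag3. Hspa5, Dnajb9, Dnajb11 and Dnajc3, which belong to the endoplasmic reticulum stress response, were left out. This gave 82 of the 30037 named genes of the table. The symbol rule also takes in 8 pseudogenes, the meiotic protein gene Hsf2bp and Hspb11, a subunit of ciliary transport.

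Poly(A) RNA was sequenced from L-GMP cells, a fraction of bone marrow leukaemia cells that the labels name by this abbreviation, sorted from mice with acute myeloid leukaemia (AML) aged 8 to 10 weeks. There were 3 libraries from Prmt6-/- (knockout, KO) leukaemia and 3 from wild-type (WT) leukaemia. The PRMT6 protein methylates arginines of histones and other proteins, and the comparison asks how loss of this enzyme changes the transcriptome of these cells. The sources used here give neither the event that caused the leukaemia nor the number of mice behind each library, so p-values measure the spread between libraries, which may be technical.

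HSP70 proteins bind unfolded stretches of client proteins in a cycle driven by ATP. J-domain proteins bring clients to them and start ATP hydrolysis, whereas nucleotide exchange factors, among them the HSP110 proteins and the BAG proteins, release the client. HSP90 takes over partly folded clients, many of them kinases and transcription factors that drive leukaemia, and HSP60 with HSP10 forms the folding chamber of mitochondria. Under stress the factor HSF1 trimerises and binds heat shock elements, inverted repeats of GAA, in the promoters of the inducible genes.

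Heat shock elements were searched in the 250 bases before a transcription start in the promoter sequences of RefSeq (build GRCm38.p6), which held 58 of the 82 genes. For each gene the start nearest its RefSeq gene start was used. It lay far from the gene start for some called genes, among them Dnajc25 (8394 bases), Hsf2 (2619) and Dnajc1 (1269). An absent match in such a window does not describe the bases before the gene start. The search used GAANNTTC or TTCNNGAA, which are repeats of 2 units and read the same on both strands, and the 3-unit forms GAANNTTCNNGAA and TTCNNGAANNTTC, which are each other's reverse complement and contain the shorter motifs. The 2-unit motif was present in 11 of the 58 promoters (19.0%), against 13.0% of all 27025 promoters. The 3-unit motif was present in 2 of them (3.45%), against 0.403% of all. Hspa8, Hsp90aa1 and Hsp90ab1 have no entry. A match is a description of the letters and not of binding. Matches are shown for 8 genes, to set the motif beside what each gene did: Hspe1 (chr1:55088053-55088082, + strand), Dnajb6 (chr5:29735846-29735870, +), Hspa1a (chr17:34972247-34972266, −), Hspa1b (chr17:34959329-34959348, −), Hspb1 (chr5:135887796-135887815, +), Hsph1 (chr5:149636356-149636375, −), Dnaja1 (chr4:40722338-40722357, +) and Dnajc10 (chr2:80315278-80315297, +). Each runs 5′ to 3′ on the strand of its gene, and capitals mark the motif. The Hspb1 window held 2 matches, and only the one farther from the start is shown.
Hspe1: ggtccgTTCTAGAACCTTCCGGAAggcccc
Dnajb6: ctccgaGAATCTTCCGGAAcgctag
Hspa1a: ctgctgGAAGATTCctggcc
Hspa1b: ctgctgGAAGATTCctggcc
Hspb1: acaagaGAAGTTTCcagatg
Hsph1: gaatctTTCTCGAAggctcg
Dnaja1: cctctaGAAAATTCtacgag
Dnajc10: ttttatTTCTAGAAaacttt
The 3-unit motif stood in the promoters of Hspe1 and Dnajb6, both of which were lower in KO. Of the genes with the 2-unit motif, 1 was called higher in KO, 3 lower and 6 neither way, and 1 was not tested. Among all genes tested, 15.0% were called higher and 18.0% lower. The called carriers were few and did not share a direction. The calls of Hspa1a (higher) and Hspe1 (lower) each ended in 10 of the 15 alternative analyses described below.

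The values below are the authors' deposited log2 values, normalised between libraries. Differences are KO minus WT on that scale, with the standard error (SE) of limma, a moderated linear model fitted to the 15454 genes that reached 1 in 3 or more libraries. A gene passed, or was called, at a Benjamini-Hochberg adjusted p under 0.05 over all genes tested. A single gene alone cannot reach that level in an exact permutation test, whose smallest two-sided p with 3 against 3 libraries is 0.1. The scale understates differences of genes with low values, and it is not per gene length, so levels are compared between libraries and not between genes.

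The libraries matched their labels for the targeted gene. Prmt6 stood at 5.42, 5.46 and 5.48 in KO libraries and at 7.82, 7.60 and 7.41 in WT libraries (difference -2.16, SE 0.0977, limma adjusted p = 3.57e-06). Sequencing depth is unknown, since no counts were used here. Granulocyte-macrophage progenitor markers were present: 12 of 12 were tested, 2 rose, 1 fell, and their summed log2 level ran from 18.43 to 18.59 in KO libraries and from 17.55 to 18.00 in WT libraries, a sum in which Elane weighs most. Elane rose by 1.45 (0.81 after quantile normalization) and Ctsg by 0.51, whereas Csf3r fell by 0.79. Mpo, at 13.34, 14.37 and 15.72 in KO libraries and 15.27, 15.19 and 16.29 in WT libraries, had a difference of -1.11 that did not pass (limma adjusted p = 0.139). Of the B-cell markers, 2 of 5 tested genes fell and 0 rose (Ighm -1.53, which did not pass in the robust fit, and Cd79b -1.15), while Cd79a (-0.10), Ebf1 (0.05) and Ms4a1 (0.02) did not pass. Their summed log2 level, in which Cd79b and Ighm weigh most, was 8.99 to 9.62 in KO libraries and 10.33 to 10.67 in WT libraries. The summed levels of erythroid markers lay between 6.12 and 6.20 in KO and 6.09 and 6.11 in WT. Those of megakaryocyte and platelet markers lay between 6.34 and 6.37 in KO and 6.28 and 6.33 in WT. In both lists KO lay slightly above WT without overlap. For T-cell markers the sums lay between 6.87 and 6.92 in KO and 6.86 and 6.90 in WT. Of these, 1 of 7 erythroid genes rose, 0 of 5 megakaryocyte genes moved, and 1 of 6 T-cell genes rose and 1 fell. No marker was listed at 0 in every library, and the part of these differences in the results below was not tested. Fewer cells of a type and less RNA per cell cannot be told apart in such bulk samples.

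Of the 82 genes, 65 were tested, and none of them passed the low-value filter through one genotype alone. Hspa8 and Hsp90ab1, the abundant constitutive chaperone genes that mark the set, had mean log2 values of 14.93 and 14.14 in KO. Of the 65, 11 were higher and 13 lower in KO, 36.9% in all, against 33.0% of all genes tested (15.0% higher and 18.0% lower). The share called was thus close to that of all genes. The median difference was 0.01, as it was over all genes tested (0.0056). The groups did not overlap for 31 members, against 47.4% of all genes. The split turned with the scaling, among members and all genes alike. After quantile normalization 16 members were higher and 9 lower (38.5% called). Of all 15454 genes, 2827 were then higher and 2378 lower (33.7% called), against 2324 and 2778 as deposited. Later counts after quantile normalization are to be read against these. By the authors' deposited table, higher values were called for 9 of the 65 and lower values for 11, against 31.0% of all genes called in that table, and these 20 were all among the 24 called here. Hspa1a, Hspa2, Hsf2bp and Dnajc13 were called here alone. The family as a whole moved neither way, and the changes lay in single members.

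**Figure D1:**
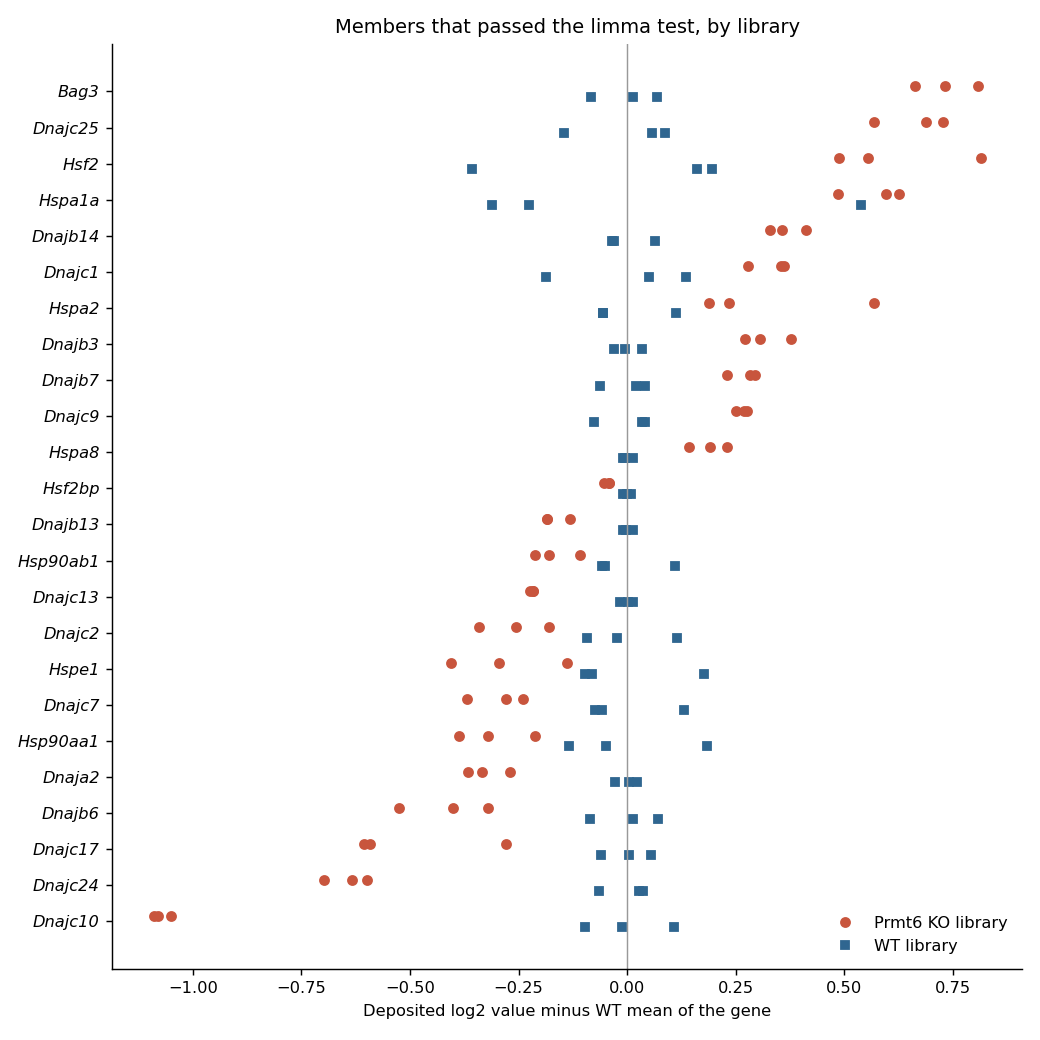
Deposited log2 value of each library minus the WT mean of the gene (x axis) for the 24 members that passed the limma test (rows), with KO libraries as circles and WT libraries as squares. Dnajc10 lies near -1.07 in all 3 KO libraries, Bag3 near 0.73, and Hspa1a is the row in which WT library 1 falls among the KO libraries.

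The 17 genes that were not tested were listed at 0 in every library in 8 cases (Hspb2, Hspb3, Hspb8, Dnajc5b, Dnajc5g, Dnaja1-ps, Hspe1-ps3 and Hspe1-ps6) and stayed below the minimum value in 9. Those 9 were Hspa12a, Hspb9, Dnajb8, Hsf3, Dnajc19-ps, Hspa9-ps1, Hspe1-ps2, Hspe1-ps4 and Hspe1-ps5. No pseudogene of the rule was therefore tested.

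The cytosolic HSP70 genes were higher or did not pass, and the cytosolic HSP90 genes were lower. Hspa8 encodes HSC70, the constitutive HSP70 of the cytosol. Its log2 values were 14.94, 14.89 and 14.98 in KO libraries and 14.74, 14.74 and 14.76 in WT libraries. Every KO library was above every WT library, and the difference was small and even (0.19, SE 0.0379, limma adjusted p = 0.00510). Hspa8 kept its call in 15 of 15 alternative analyses, and its difference was 0.32 after quantile normalization. Hspa1a, one of the stress-inducible HSP70 genes, stood at 9.87, 9.98 and 10.01 in KO libraries and at 9.92, 9.07 and 9.16 in WT libraries. WT library 1 lay among the KO libraries and the other WT libraries lay well below them (0.57, SE 0.190, limma adjusted p = 0.0470).

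The Hspa1a call was fragile. It ended in 10 of 15 alternatives, among them those without KO library 1 (adjusted p = 0.0885), 2 (0.119) or 3 (0.117) and without WT library 2 (0.153) or 3 (0.137). In the authors' deposited table the adjusted p of Hspa1a was 0.162. Its near-identical neighbour Hspa1b stood at 3.95, 4.02 and 3.91 in KO libraries and at 4.06, 3.96 and 3.93 in WT libraries, a difference of -0.02 that did not pass (0.02 without WT library 1). Reads from the Hspa1a and Hspa1b transcripts are hard to tell apart, so the share of each is uncertain. The element printed for these genes has the same letters in both.

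The third HSP70 gene called was Hspa2, known from male germ cells. It stood low, at 4.39, 4.73 and 4.35 in KO libraries and 4.27, 4.10 and 4.10 in WT libraries. KO library 2 was the highest, and the groups did not overlap (0.33, SE 0.0960, limma adjusted p = 0.0269). The difference was 0.21 without KO library 2 and 0.19 with a linear value of 16 added, and the call ended without WT library 2 (adjusted p = 0.0859) or 3 (0.0770). In the authors' deposited table Hspa2 had a log2 fold change of 3.03 (adjusted p = 0.261). In all, 3 of 12 tested HSP70 and HSP110 genes rose and 0 fell (also 0 at an unadjusted p under 0.05 in limma), against 15.0% higher and 18.0% lower among all genes tested, and the 9 others differed by -0.06 to 0.21. These included the mitochondrial HSP70 gene Hspa9 at 0.06, the ribosome-associated Hspa14 at -0.02 and the HSP110 gene Hspa4 at 0.01. The count that rose was 1 without WT library 2 or 3, with no trend, with the robust fit and by the authors' deposited test.

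Hsph1, the inducible HSP110 gene, varied more between libraries of a genotype than between genotypes. Its log2 values were 7.72, 6.86 and 8.05 in KO libraries and 7.78, 6.27 and 7.93 in WT libraries. The library numbered 2 was the lowest of its genotype in both. The difference of 0.21 (SE 0.430) had a 95% interval from -0.76 to 1.19 and did not pass (limma adjusted p = 0.738). It was -0.31 without WT library 2 and -0.04 without KO library 3.

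Both HSP90 genes of the cytosol were lower in KO. Their relatives Hsp90b1 of the endoplasmic reticulum (0.0065) and Trap1 of mitochondria (0.079), outside the rule, did not pass. Hsp90aa1, the stress-inducible form, stood at 12.60, 12.54 and 12.71 in KO libraries and 12.88, 12.79 and 13.11 in WT libraries. No KO library reached the lowest WT library (-0.31, SE 0.0827, limma adjusted p = 0.0196). The call ended without KO library 1 (adjusted p = 0.0586) or 2 (0.0797) and after quantile normalization (-0.20, adjusted p = 0.0778). Hsp90ab1, the constitutive form, stood at 14.13, 14.10 and 14.20 in KO libraries and 14.26, 14.25 and 14.42 in WT libraries. The groups did not overlap, but the gap between them was narrow (-0.17, SE 0.0552, limma adjusted p = 0.0452).

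The Hsp90ab1 call ended in 12 of 15 alternatives. These included leaving out KO library 1 (adjusted p = 0.105) or 2 (0.152), or WT library 1 (0.0516), 2 (0.0544) or 3 (0.117). The difference was -0.01 after quantile normalization and -0.10 after intensity-dependent centring. Hspa8 exceeded Hsp90ab1 within a library by 0.81, 0.79 and 0.77 in KO libraries and by 0.48, 0.49 and 0.34 in WT libraries. This log2 difference between the genes was larger in every KO library, by 0.35 on average (exact two-sided permutation p = 0.1, the smallest that 3 against 3 allows), and by 0.31 to 0.39 in the 15 alternatives. Scalings that treat genes of similar value alike leave such a difference nearly unchanged by construction, and the pair was chosen after the values were seen.

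**Figure D2:**
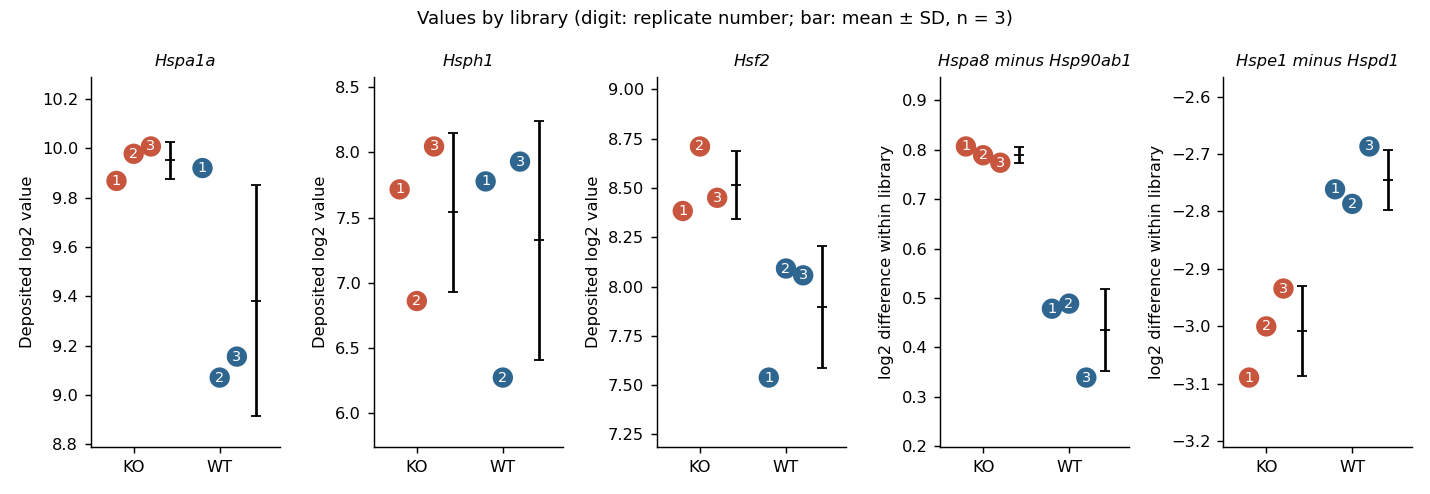
Deposited log2 values of Hspa1a, Hsph1 and Hsf2, and log2 differences between pairs of genes within a library (y axes), for KO and WT libraries; digits are replicate numbers, and bars give mean ± SD, n = 3. The Hsph1 values are lowest in library 2 of both genotypes, and the paired differences of the genotypes do not overlap.

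Hspe1 and Hspd1 encode HSP10 and HSP60, the lid and the barrel of the mitochondrial chaperonin, and they start 95 bases apart on opposite strands of chromosome 1 in RefSeq. Hspe1 stood at 10.05, 10.16 and 10.31 in KO libraries and 10.37, 10.36 and 10.63 in WT libraries. The highest KO library lay just under the lowest WT library (-0.28, SE 0.0926, limma adjusted p = 0.0455). The call ended in 10 of 15 alternatives, among them those without KO library 1 (adjusted p = 0.148) or 2 (0.118), or WT library 1 (0.0580), 2 (0.0522) or 3 (0.123). Hspd1 stood at 13.14, 13.16 and 13.25 in KO libraries and 13.13, 13.14 and 13.32 in WT libraries. The groups overlapped. At -0.02 (95% interval -0.15 to 0.12) Hspd1 did not pass, and its difference was 0.13 after quantile normalization. Within a library, Hspe1 lay below Hspd1 by a log2 difference of -3.09, -3.00 and -2.93 in KO and of -2.76, -2.79 and -2.69 in WT. The change in this difference was -0.26 (exact two-sided permutation p = 0.1, the smallest possible), and it ranged from -0.33 to -0.22 over the alternatives. This pair, too, was chosen after the values were seen. The genes overlap at their starts, and the sources used here do not say whether the authors' counting used strand.

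None of the 4 tested genes with an Hspb symbol passed, against 33.0% of all genes tested. The 4 are small heat shock protein genes apart from Hspb11, the subunit of ciliary transport. Hspb1 and Hspb7 had mean log2 values under 5, where 10.6% of all genes were called. At an unadjusted p under 0.05 limma gave 2, Hspb7 and Hspb11, both higher. The authors' deposited test passed 0 as well, and without KO library 2 limma called 1 higher. Hspb1, the HSP27 homologue, stood at 4.69, 4.83 and 4.86 in KO libraries and 4.73, 4.57 and 4.85 in WT libraries. The groups overlapped, and limma gave 0.08 (SE 0.0775, adjusted p = 0.494). Hspb6, Hspb7 and Hspb11 differed by -0.10, 0.06 and 0.15.

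The J-domain proteins made up 42 of the 82 genes, of which 39 were tested. Of these, 6 rose and 9 fell (38.5% called, against 33.0% of all genes), and the 24 others differed by -0.18 to 0.18. After quantile normalization 5 of 10 class B genes rose and 2 fell, and 5 of 25 class C genes rose and 5 fell, against 3 and 2 in class B and 3 and 6 in class C as deposited. Class A and class B proteins resemble the bacterial DnaJ in layout and act mainly as general HSP70 partners, whereas class C proteins have only the J domain in common and serve special tasks.

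**Figure D3:**
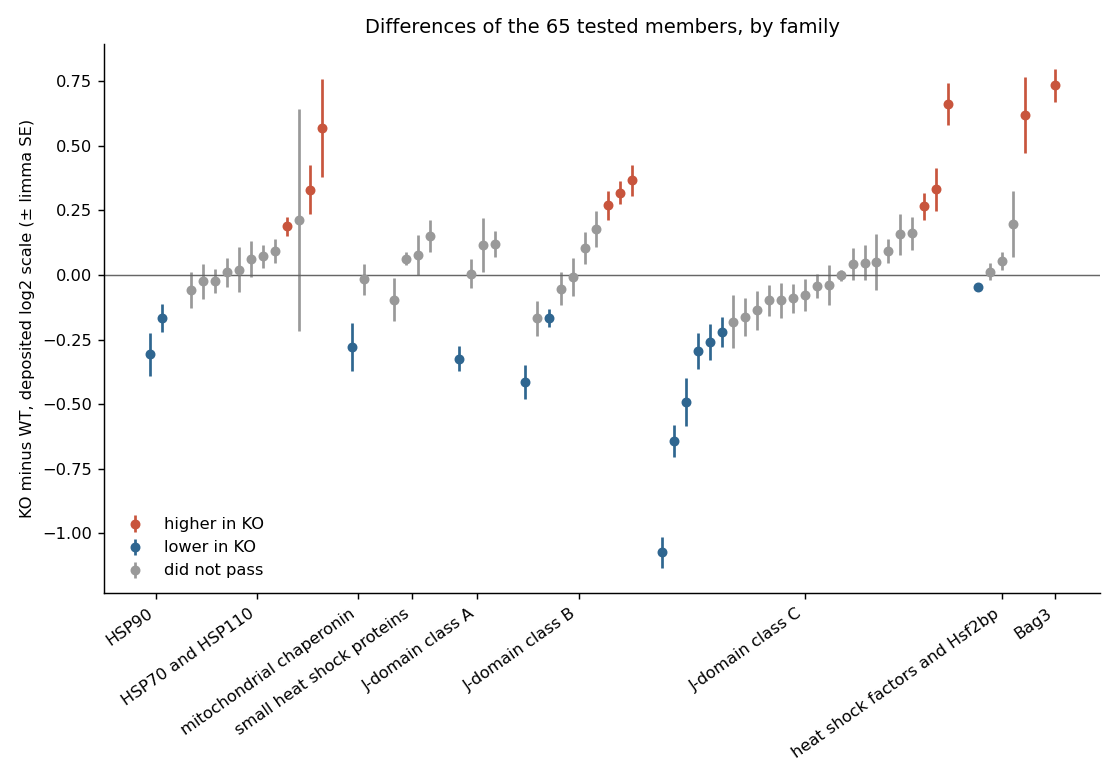
KO minus WT difference on the deposited log2 scale (y axis, with limma's SE as bars) of each tested member, ordered by size within its family (x axis). Both cytosolic HSP90 genes lie below 0 and the called HSP70 genes above it. Class C J-domain genes span the widest range, from -1.07 to 0.66.

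Of the class A genes 1 of 4 passed. Dnaja2, a cytosolic HSP70 partner, stood at 11.34, 11.41 and 11.31 in KO libraries and 11.68, 11.65 and 11.70 in WT libraries. The groups were well apart (-0.32, SE 0.0494, limma adjusted p = 0.00118). Dnaja1, its heat-inducible relative, stood at 12.97, 13.13 and 13.36 in KO libraries and 12.91, 12.99 and 13.21 in WT libraries, with a difference of 0.12 (SE 0.105) that did not pass. The library numbered 3 was the highest of its genotype in both.

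Class B held the classical inducible HSP40 gene, Dnajb1. It stood at 11.64, 11.63 and 11.79 in KO libraries and 11.57, 11.52 and 11.66 in WT libraries. The groups overlapped and the difference of 0.10 (SE 0.0623) did not pass (limma adjusted p = 0.242), but after quantile normalization it was 0.21 and passed (adjusted p = 0.0222). Dnajb6, which keeps aggregation-prone proteins soluble, stood at 11.67, 11.80 and 11.88 in KO libraries and 12.11, 12.21 and 12.27 in WT libraries. All KO libraries were below all WT libraries (-0.41, SE 0.0660, limma adjusted p = 0.00146). Dnajb14, a protein of the endoplasmic reticulum membrane, rose by 0.37 and is encoded on chromosome 3, 27.6 Mb from Prmt6.

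The other called class B genes had low values and are known mostly from testis or cilia. Dnajb3 stood at 4.45, 4.52 and 4.41 in KO libraries and 4.11, 4.14 and 4.18 in WT libraries. The groups did not overlap (0.32, SE 0.0450, limma adjusted p = 0.000779), and the authors' deposited log2 fold change was 3.10. Dnajb7 stood at 5.68, 5.62 and 5.69 in KO libraries and 5.33, 5.41 and 5.44 in WT libraries. It was higher in every KO library (0.27, SE 0.0564, limma adjusted p = 0.00616; authors' deposited log2 fold change 1.09). Dnajb7 lies on the opposite strand within Xpnpep3, which itself differed by 0.41. Dnajb13, a part of the ciliary axoneme, fell by 0.17 (authors' deposited log2 fold change -1.87), and it overlaps Ucp2 on the opposite strand, which differed by -0.71. Dnajb3 overlaps the Ugt1a genes on the opposite strand, of which Ugt1a7c differed by -0.46. The part of reads from overlapping genes was not tested.

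Dnajc10, a class C gene on chromosome 2, had the largest difference of the members on the deposited log2 scale, which draws in genes of low level. It encodes ERdj5, a disulphide reductase of the endoplasmic reticulum that prepares misfolded proteins for degradation. Dnajc10 stood at 10.74, 10.73 and 10.76 in KO libraries and 11.80, 11.72 and 11.92 in WT libraries. The KO libraries lay close together and far below the lowest WT library. The means were 10.74 ± 0.02 in KO and 11.82 ± 0.10 in WT (SD, n = 3 each), which is 0.475 of the WT level on the linear scale (-1.07, SE 0.0610, limma adjusted p = 1.27e-05). The authors' deposited log2 fold change was -1.21, smaller in size than those of the called genes Dnajb3 (3.10) and Dnajb13 (-1.87), and no alternative ended the call.

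Other class C genes moved the opposite way. Dnajc25 stood at 8.56, 8.52 and 8.40 in KO libraries and 7.92, 7.89 and 7.69 in WT libraries. All KO libraries were higher (0.66, SE 0.0815, limma adjusted p = 0.00037). Gm20503, a predicted gene that overlaps Dnajc25 on the same strand, was higher by 0.53, so that shared reads are possible and the values of both are uncertain. Dnajc1, a membrane protein of the endoplasmic reticulum that contacts ribosomes, stood at 10.41, 10.41 and 10.33 in KO libraries and 9.86, 10.10 and 10.19 in WT libraries. It was higher in every KO library (0.33, SE 0.0832, limma adjusted p = 0.0144), a call that ended without KO library 2 (adjusted p = 0.0536).

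Of the list of 16 chaperones and folding enzymes of the endoplasmic reticulum, which includes the 4 genes left out of the rule, 6 rose and 0 fell (limma gave 1 lower at an unadjusted p under 0.05), with a median difference of 0.13, against 15.0% higher and 18.0% lower among all genes tested. After quantile normalization 11 rose and 0 fell, where 2827 of all 15454 genes rose and 2378 fell. Dnajc3, an inhibitor of the translation-arresting kinase PERK, was higher by 0.77, Creld2 by 0.52 and Sdf2l1 by 0.51. Dnajc10, a resident of the same compartment, fell by 1.07.

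Further class C genes with lower values in KO serve translation, splicing and trafficking. Dnajc24 (DPH4), needed to make diphthamide on elongation factor eEF2, stood at 8.09, 8.15 and 8.18 in KO libraries and 8.72, 8.82 and 8.81 in WT libraries. Its groups were well apart (-0.64, SE 0.0627, limma adjusted p = 0.000111). Dnajc17, a nuclear protein tied to splicing, stood at 7.01, 7.00 and 7.32 in KO libraries and 7.54, 7.61 and 7.66 in WT libraries. KO library 3 lay above the other KO libraries and below all WT libraries (-0.49, SE 0.0943, limma adjusted p = 0.00392). Zfyve19, which overlaps Dnajc17 on the opposite strand, differed by -0.63.

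Dnajc7, which binds both HSP70 and HSP90, fell by 0.30, Dnajc2, the ribosome-associated partner of Hspa14, by 0.26, and Dnajc13, a protein of endosome sorting, by 0.22. The Dnajc7 call held in every alternative. The Dnajc2 call ended without KO library 1 (adjusted p = 0.0651) or WT library 3 (0.0531) and after quantile normalization (-0.16, adjusted p = 0.0807). The Dnajc13 call ended without KO library 2 (adjusted p = 0.0557) or WT library 2 (0.0570). Dnajc9, a chaperone of histones H3 and H4, went the other way. Its log2 values were 11.80, 11.79 and 11.77 in KO libraries and 11.45, 11.57 and 11.56 in WT libraries. Every KO library was higher (0.27, SE 0.0510, limma adjusted p = 0.00402).

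The heat shock factors split between a factor that passed and one that did not. Hsf2, a partner of HSF1 known from development and germ cells, stood at 8.38, 8.71 and 8.45 in KO libraries and 7.54, 8.09 and 8.06 in WT libraries. WT library 1 was the lowest, and all KO libraries were above all WT libraries (0.62, SE 0.148, limma adjusted p = 0.0116). Hsf1, the main stress factor, stood at 6.87, 6.53 and 6.74 in KO libraries and 6.46, 6.31 and 6.78 in WT libraries. The groups overlapped, and at 0.20 (95% interval -0.09 to 0.49) Hsf1 missed the threshold (SE 0.128, limma adjusted p = 0.278). The difference between the changes of Hsf2 and Hsf1 was not tested. Hsf4 and Hsf5 differed by 0.05 and 0.01. Hsf2bp, which serves meiotic recombination, had low values. Its difference of -0.05 passed here, but its adjusted p was 1 in the authors' deposited table, and the call ended in 7 alternatives, among them those without KO library 3 (adjusted p = 0.0606) and without WT library 1 (0.0715) or 2 (0.0645).

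Bag3, a BAG-domain exchange factor that couples HSP70 to small heat shock proteins and to selective autophagy, had the largest positive difference of the members on the deposited log2 scale. In the authors' deposited table its log2 fold change was 0.87, below those of the called members Dnajb3 (3.10), Dnajb7 (1.09), Dnajc25 (1.01) and Hsf2 (0.91). The log2 values of Bag3 were 10.73, 10.65 and 10.58 in KO libraries and 9.99, 9.93 and 9.84 in WT libraries. The lowest KO library was far above the highest WT library, and the means were 10.65 ± 0.07 in KO and 9.92 ± 0.08 in WT (SD, n = 3 each). The KO level was 1.66 times the WT level on the linear scale (0.73, SE 0.0637, limma adjusted p = 6.66e-05), and the call held in every alternative. Bag3 is heat-inducible in other settings, and its promoter window held no 2-unit motif. The windows of the heat-inducible members Dnajb1 and Hspd1 held none either. The Hspd1 window could not include the element printed for Hspe1. That element lies on the other side of the Hspd1 start, inside the Hspd1 gene. The promoter windows of Bag3 (chr7:128523333-128523582, + strand) and Dnajc10 (chr2:80315216-80315465, + strand) are the 250 bases before the start used in the search. That start is the RefSeq gene start for Bag3 and lies 20 bases from it for Dnajc10. These genes are at the ends of the range on the deposited scale, and any 2-unit motif is in capitals.
Bag3: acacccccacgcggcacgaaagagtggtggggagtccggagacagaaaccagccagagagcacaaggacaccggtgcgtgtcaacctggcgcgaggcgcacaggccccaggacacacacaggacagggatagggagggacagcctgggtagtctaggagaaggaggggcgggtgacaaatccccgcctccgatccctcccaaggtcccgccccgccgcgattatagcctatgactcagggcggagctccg
Dnajc10: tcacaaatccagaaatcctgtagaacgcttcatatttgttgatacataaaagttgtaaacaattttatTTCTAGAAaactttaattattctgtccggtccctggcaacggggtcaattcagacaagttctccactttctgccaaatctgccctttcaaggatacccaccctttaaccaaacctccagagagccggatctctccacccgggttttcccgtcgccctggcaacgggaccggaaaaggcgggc
The endoplasmic reticulum stress element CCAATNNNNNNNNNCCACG (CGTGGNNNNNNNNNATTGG on the other strand) was found in none of the 58 windows, against 0.122% of all promoters. So rare a motif is unlikely to occur in 58 windows, so its absence does not set the members apart. Hspa5, Dnajb9, Dnajb11 and Dnajc3, left out by the rule, were not among these windows.

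**Figure D4:**
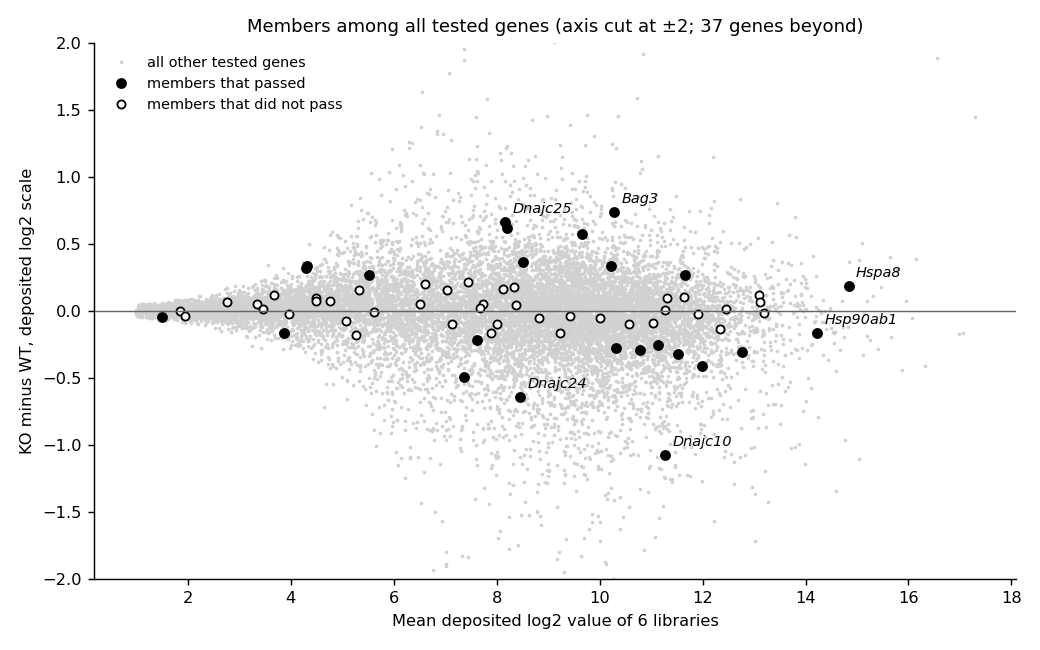
KO minus WT difference (y axis, limited to ±2) against the mean deposited log2 value of the 6 libraries (x axis) for all tested genes in grey and the members in black (passed) or open circles (did not pass). Members lie within the cloud of all genes, with Dnajc10 lowest and Bag3 highest among them.

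The level of a gene bore on how often it was called. Of the 14 tested members with a mean log2 value under 5, 2 rose and 2 fell, where 10.6% of all genes at that level were called. Of the 15 from 5 to 8, 1 rose and 2 fell, where 36.7% of all genes were called. Of the 18 members from 11 upwards, 2 rose and 6 fell, where 49.0% of all genes were called. Between 8 and 11, 6 of 18 rose and 3 fell, and 44.7% of all genes were called.

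The genes that work with these chaperones were called in both directions, to be read against 33.0% called among all genes tested. Of 19 HSP90 co-chaperones 3 rose and 5 fell, with a median difference of -0.09, and after quantile normalization 5 rose and 3 fell. Without WT library 1, 1 rose and 5 fell. Cdc37, which loads kinases onto HSP90, fell by 0.36 and Unc45a, a chaperone of myosin, by 0.38, whereas Fkbp5, an immunophilin induced by glucocorticoids, rose by 0.49. Of 12 other HSP70 helpers 1 rose and 1 fell, with a median of -0.0055. Bag2, an exchange factor that restrains the ubiquitin ligase CHIP, rose by 0.83 (SE 0.0628, limma adjusted p = 3.47e-05), and Grpel2, an exchange factor of mitochondrial HSP70, fell by 0.37. Stip1, which joins HSP70 to HSP90, differed by 0.10 and did not pass, but passed after quantile normalization (0.19) and intensity-dependent centring (0.15).

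The CCT chaperonin, which folds actin and tubulin, and prefoldin, which delivers them, were lower in 6 of 14 genes and higher in 1, with a median of -0.14. After quantile normalization 5 were lower and 2 higher. Vbp1 (prefoldin 3) fell by 0.57, Pfdn5 by 0.28 and Tcp1 by 0.27, or by 0.14 after quantile normalization. Of 12 mitochondrial partners and proteases 0 rose (also 0 at an unadjusted p under 0.05 in limma) and 3 fell, with a median of -0.03. After quantile normalization 1 rose and 2 fell, with a median of 0.03. Besides Grpel2, the protease Htra2 fell by 0.32 and Clpp by 0.18, a call that ended without KO library 1 (adjusted p = 0.0786) or 2 (0.124), without WT library 1 (0.0855) or 2 (0.0982) and after quantile normalization (0.198).

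Genes that HSF1 is known to induce, apart from the members, did not rise as a set. Of 12 tested 1 rose and 3 fell, with a median of -0.10, against 15.0% higher and 18.0% lower among all genes tested. After quantile normalization 2 rose and 2 fell, with a median of -0.02. Cryab was listed at 0. Some of these genes, among them Chordc1, which fell, are also counted among the HSP90 co-chaperones. Zfand2a, a proteasome adaptor, rose by 0.23, and Ubb, which encodes polyubiquitin, fell by 0.41. Immediate early genes, which mark stress during tissue dissociation, were higher for 4 and lower for 5 of the 18 tested (median -0.05). Among all genes tested 33.0% were called. After quantile normalization 6 immediate early genes were higher and 5 lower. Socs3 was higher by 1.45, whereas Nr4a1 fell by 0.62 and Dusp1 fell by 0.50. The part of handling stress in the values of the inducible chaperones was not tested.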

How the data were processed

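Per the submitters' processing notes, Trim Galore, kallisto and HOMER were used (versions not given) on build GRCm38; per the file header, HOMER's differential expression command was run on a count table. The expression values were deposited by the authors on a log2 scale, normalised between libraries. The transformation is not named; values run from -1.97 to 18.04, and genes of low level are drawn together. The log2 fold change, p-value and adjusted p-value per gene come from the authors' deposited table, whose test is not named. One row without a gene name was left out (1 row, 0.00333%).

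Libraries were grouped by the labels. The values were fitted as deposited with limma 3.58.1 in R 4.3.3 (mean-variance trend), on genes that reached 1 in 3 or more libraries; exact permutation tests used scipy 1.17.1. The script was tested on simulated data. Depth is unknown, so no counting interval is given. All 82 genes were placed with GENCODE annotation of GRCm38. Named genes were Hspa8, Hsp90ab1, Hsf1, Hsf2, 10 heat-inducible members, the 10 largest called differences in each direction without overlap, and up to 3 genes of each list (1 of them is not reported here); other called or neighbouring genes were added after their values were seen. The members and lists were chosen with earlier results of these data known. Alternatives were quantile normalization, intensity-dependent centring, no filter, a minimum of 5, a linear value of 16 added, limma without trend or robust, the replicate number as a block, the authors' deposited test, and leaving out each library.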

Additional observations from a re-analysis of the deposited data

How the results depend on the processing

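Of the 24 called members, 15 kept their call and direction in all 15 alternatives where they were tested (Bag3, Dnaja2, Dnajb3, Dnajb6, Dnajb7, Dnajb13, Dnajb14, Dnajc7, Dnajc9, Dnajc10, Dnajc17, Dnajc24, Dnajc25, Hsf2 and Hspa8). The number called was 19 to 22 without any 1 library (9 to 11 higher, 9 to 12 lower). This was 29.2% to 33.8% of tested members, where 25.2% to 29.8% of all genes were called. Signs turned for members that did not pass: Hspd1 after quantile normalization (0.13), after intensity-dependent centring (0.046), without KO library 1 (0.0053) and without WT library 3 (0.043). It turned for Hspa1b without WT library 1 (0.015) and for Hsph1 without KO library 3 (-0.038) and WT library 2 (-0.31). Without any 1 library, Hspd1 ranged from -0.050 to 0.043, Hspa1b from -0.051 to 0.015 and Hsph1 from -0.31 to 0.55. No alternative moved the median of all genes by over 0.1. With the replicate block 11 members were higher and 14 lower (38.5%), against 32.8% of all genes called. Dnajc8 joined the called members (limma adjusted p = 0.0463). Deviations of same-numbered libraries correlated at 0.095, 0.073 and 0.17, and every library correlated best with its own number, a hint from the data and not the design. With a linear value of 16 added, Dnajb3 differed by 0.18 and Dnajb13 by -0.08. In the authors' deposited table the log2 fold change was 1.01 for Dnajc25, -0.91 for Dnajc17, -0.39 for Dnajc13 and -2.97 for Hsf2bp. The cause was not tested. Low values limit what can be seen: differences there are understated, and absent calls do not show equal levels.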
